A study of Homo sapiens with 9 samples.

Results

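The D cyclins, the kinases they switch on and the inhibitors of those kinases were followed by 25 probe sets of 9 genes: CCND1, CCND2, CCND3, CDK4, CDK6, RB1, CDKN1A, CDKN1B and CDKN1C. They were all the probe sets, among 54613 on the array that are not controls, whose annotation gives a single gene symbol belonging to a list of 10 such genes. CDKN2C, the tenth gene, had no probe set under its single symbol in the annotation used and is named only. CDK6 was read by 7 probe sets, CDKN1C by 5, CCND2 by 4, CCND1, CCND3 and RB1 by 2 each, and CDK4, CDKN1A and CDKN1B by 1 each.

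D-type cyclins are made in response to growth factors and bind CDK4 or CDK6. The active complexes phosphorylate the retinoblastoma protein RB1, which then lets go of the E2F factors that transcribe the genes of DNA replication. Inhibitors of the Cip/Kip family (p21 from CDKN1A, p27 from CDKN1B, p57 from CDKN1C) bind cyclin-CDK complexes, and those of the INK4 family bind CDK4 and CDK6 alone. In muscle precursors, p21, p57, RB1 and cyclin D3 are known for their part in the exit from the cell cycle that goes with differentiation.

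All 9 arrays held RNA of Rh30, a human cell line of fusion-positive rhabdomyosarcoma (FP-RMS) that carries the PAX3-FOXO1 fusion, with 3 arrays in each of 3 groups. Adherent cells grew in RPMI with 10% fetal bovine serum. Spheres had spent 48 h in Neurobasal with EGF at 40 ng/ml, bFGF at 80 ng/ml, insulin at 50 µg/ml and B27 at 1X, so growth form and medium changed together and cannot be told apart. Xenografts were tumors in SCID/beige mice, raised per the methods from 1000000 adherent cells placed in the left gastrocnemius, whereas the labels describe a subcutaneous flank injection of cells grown either as adherent cultures or as spheres. Which of these cultures each xenograft array came from is thus not settled. The host keeps its own stroma, the probes are designed for human RNA, and any mouse RNA was read only as far as it cross-hybridizes. The methods call the arrays biological triplicates of 1 line, so p-values measure the spread between these arrays and not between tumors of different patients.

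The values were log2 robust multi-array average (RMA) levels, so a difference of 1 is a 2-fold change. Levels of different probe sets were set against each other only to rank them as bright or dim. No pair of arrays was identical, and the correlation between arrays of a group ran from 0.990 to 0.998. The muscle-lineage and FP-RMS markers were present, with MYOD1 at group means of 11.12, 11.07 and 10.87 in adherent cells, spheres and xenografts. The mean level of 8 such markers was 9.95 to 10.05 in adherent arrays, 9.50 to 9.54 in spheres and 9.74 to 9.83 in xenografts. Against adherent cells, 4 of the 8 were lower in spheres, where MYOD1 changed least (-0.05), and in xenografts 3 were lower and 1 higher. Adult skeletal muscle markers averaged 4.34 to 4.40, 4.15 to 4.24 and 5.13 to 5.44, and 3 of 6 were higher and 1 lower in xenografts than in adherent cells. Fibroblast markers averaged 6.01 to 6.13, 5.78 to 6.0 and 6.48 to 6.63, with 3 of 6 higher and 1 lower. Xenografts were thus the high group for the averages of muscle and fibroblast markers. These averages cover uneven differences from adherent cells. They ran from -0.99 to 3.22 for muscle (median 0.37) and from -0.81 to 2.82 for fibroblast markers (median 0.16). Of all genes, 12.6% were higher and 14.3% lower in xenografts than in adherent cells, and 16.3% were lower in spheres. Endothelial markers were higher in xenografts than in adherent cells at 1 of 5, with averages of 4.23 to 4.34, 4.17 to 4.48 and 4.32 to 4.69. None of the 4 leukocyte markers measured passed, with averages of 3.32 to 3.52, 3.36 to 3.54 and 3.44 to 3.63. The 3′ minus 5′ signal of ACTB, which grows as RNA degrades, was 3.15 to 3.31 in spheres, above the 2.07 to 2.67 of adherent cells and the 2.30 to 2.75 of xenografts, while that of GAPDH was 0.62 ± 0.05, 0.54 ± 0.13 and 0.53 ± 0.12 (SD, n = 3). The part of these differences in the results on the cell cycle genes was not tested. In bulk RNA, fewer cells of a type and less RNA per cell cannot be told apart.

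Spheres held less cyclin D and CDK4 mRNA than adherent cells, and more CDKN1A and CDKN1B mRNA. RB1 mRNA was lower there at the brighter of its probe sets. Of the 25 probe sets, 3 were higher and 9 lower in spheres by limma at an adjusted p under 0.05, where 26.0% of all probe sets passed, 13.3% higher and 12.6% lower. In xenografts against adherent cells, 1 was higher and 10 were lower, where 23.0% of all passed, 9.78% higher and 13.2% lower, and the changes lay in CCND1, CCND2, CDK6, CDKN1A and CDKN1B. Between xenografts and spheres, 2 were higher in xenografts and 9 lower, a share of 44.0% close to the 39.1% of all probe sets, of which 20.6% were higher and 18.5% lower. The arrays of spheres and adherent cells did not overlap at 15 probe sets, 60.0% beside 41.6% of all. Those of xenografts and adherent cells did not overlap at 14, or 56.0% beside 38.5%, and those of xenografts and spheres at 12, where 47.4% of all did not overlap. Both comparisons with adherent cells use the same 3 adherent arrays.

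**Figure D1:**
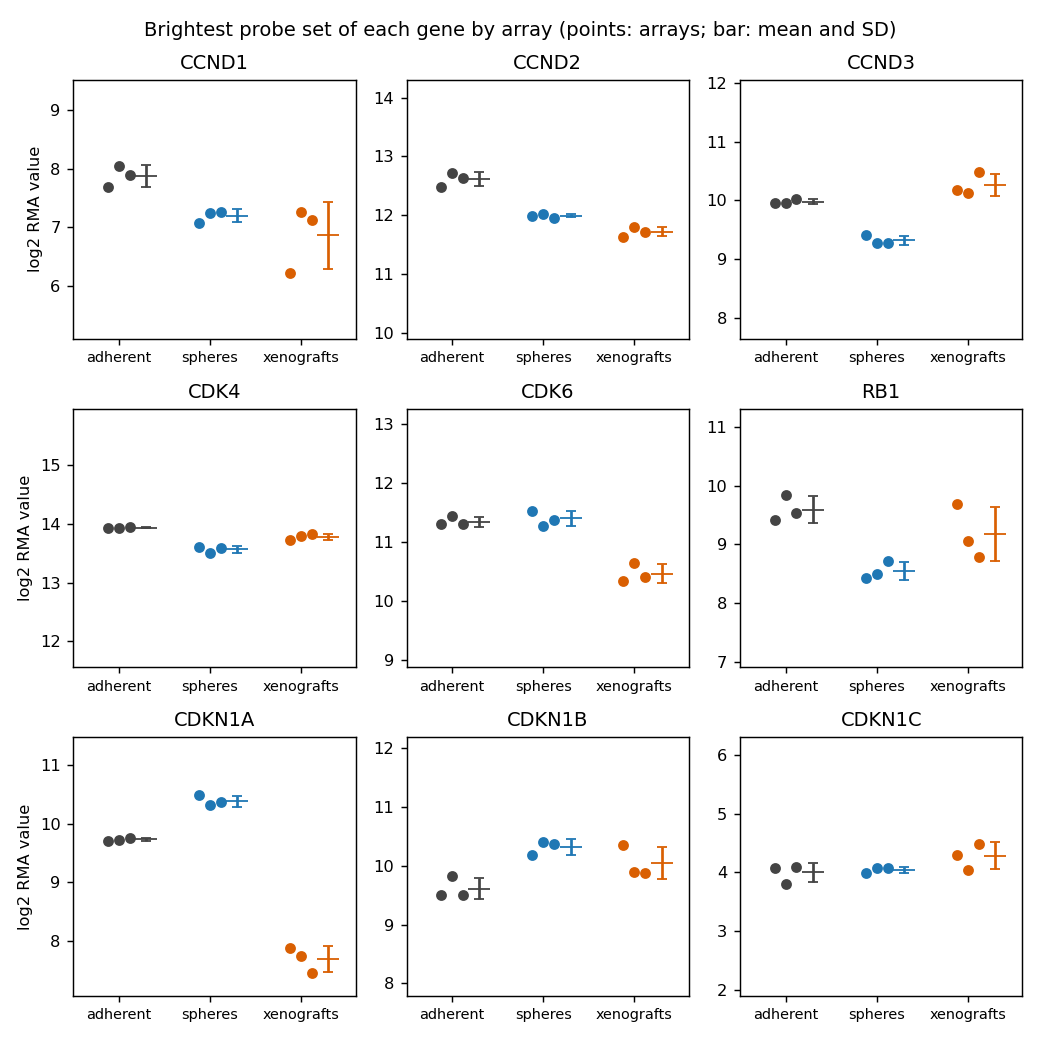
Log2 RMA level (vertical axis) of the brightest probe set of each gene in the 3 adherent, 3 sphere and 3 xenograft arrays; each point is an array and the bar beside it is the mean and SD of the group. The panels span the same height, so that the drop of CDKN1A in xenografts to 7.46 to 7.89 can be read against the narrow range of CDK4.

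The 3 D cyclin genes were lower in spheres, and CCND1 and CCND2 were lower in xenografts too. Of their 8 probe sets, 7 fell in spheres and 5 in xenografts against adherent cells, and none rose in either. Of all probe sets, 12.6% fell and 13.3% rose in spheres, and 13.2% fell and 9.78% rose in xenografts. CCND2 alone accounts for 4 of the 8, so they are not independent readings.

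CCND2, on chromosome 12 (4273762 to 4305353; GRCh38.p14, as all positions here), encodes cyclin D2. Its brightest probe set, 200953_s_at, read 12.48, 12.72 and 12.63 in adherent cells, 11.99, 12.02 and 11.95 in spheres and 11.63, 11.80 and 11.72 in xenografts. The 3 groups did not overlap, and xenografts lay below spheres. The difference from adherent cells was -0.62 ± 0.09 (SE) in spheres (limma adjusted p = 3.98e-04), or 0.650 times the adherent level. In xenografts it was -0.89 ± 0.09 (limma adjusted p = 6.54e-05), or 0.540 times. The other CCND2 probe sets fell in spheres by 0.77, 0.79 and 0.95, with all sphere arrays below all adherent arrays at each. The fall of 0.95, at 200952_s_at, did not pass by the unpaired test of the methods after adjustment (adjusted p = 0.101). In xenografts, 200951_s_at fell by 0.78 and 231259_s_at by 1.23, whereas 200952_s_at, at 7.97, 8.10 and 7.63, had a difference of -0.43 that did not pass (limma adjusted p = 0.157). Its adherent arrays read 8.14, 8.45 and 8.38, so the xenograft arrays were all lower there too. Between xenografts and spheres the CCND2 probe sets did not move alike: 200953_s_at (-0.27) and 231259_s_at (-0.45) were lower in xenografts, and 200951_s_at (-0.01) and 200952_s_at (0.52) did not pass. The call at 200953_s_at was lost in 6 of the 9 fits that left out an array, and that at 231259_s_at in 3 of them and after quantile normalization (adjusted p = 0.108).

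CCND1 encodes cyclin D1, the D cyclin most often induced by mitogens, on chromosome 11 (69641156 to 69654474). Probe set 208712_at read 7.68, 8.05 and 7.89 in adherent cells, 7.07, 7.25 and 7.26 in spheres and 6.22, 7.27 and 7.12 in xenografts. Every sphere and xenograft array was below every adherent array, and xenograft array 1 stood about 1 unit below the other xenografts. The fall in spheres was -0.68 ± 0.22 (SE; limma adjusted p = 0.0418), and at the second probe set, 208711_s_at, it was -0.62 ± 0.20 (adjusted p = 0.0404). Leaving out any adherent or sphere array ended these calls at both probe sets, with limma adjusted p from 0.0528 to 0.147. Leaving out xenograft array 1 kept the calls, at 9.07e-04 and 3.92e-04. Over the 9 fits that left out an array, the differences stayed at -0.78 to -0.59 and at -0.69 to -0.57. The fit shares its spread over all groups, and the SD at 208712_at was 0.57 in xenografts, 0.19 in adherent cells and 0.11 in spheres. In xenografts the differences from adherent cells were -1.0 ± 0.22 (limma adjusted p = 0.00715) and -1.19 ± 0.20 (0.00144). Without xenograft array 1 they were -0.68 (0.00318) and -0.89 (1.86e-04). By the methods' test after adjustment, with all arrays kept, neither xenograft difference passed (adjusted p = 0.165 and 0.104). The probe sets differed on whether xenografts lay below spheres. 208711_s_at passed at -0.57 (limma adjusted p = 0.0421), a call lost in 7 of the 9 fits that left out an array, and 208712_at did not at -0.33 (0.259), and without xenograft array 1 neither passed, at -0.27 (0.0558) and 0.00 (0.996).

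CCND3, on chromosome 6 (41934933 to 42050035), encodes cyclin D3 and was the D cyclin that did not fall in xenografts. Probe set 201700_at read 9.96, 9.95 and 10.02 in adherent cells, 9.42, 9.27 and 9.28 in spheres and 10.18, 10.12 and 10.48 in xenografts. The groups did not overlap, with spheres lowest and xenografts highest. The fall in spheres was -0.66 ± 0.11 (SE; limma adjusted p = 7.1e-04), or 0.634 times the adherent level. The xenograft difference of 0.28 (95% interval 0.05 to 0.52) missed the threshold (adjusted p = 0.0823). It passed after quantile normalization, at 0.38 (adjusted p = 0.0315), and with a mean-variance trend and robust estimation (0.0475). Xenografts lay 0.94 above spheres (limma adjusted p = 4.17e-05). The dim probe set 1562028_at, at 3.90 to 4.72 over all arrays, passed in no comparison.

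The 2 kinases went different ways. CDK4 was slightly lower in spheres, and CDK6 was lower in xenografts and not in spheres.

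CDK4 lies on the minus strand of chromosome 12 (57747727 to 57752310). Its 1 probe set, 202246_s_at, read 13.93, 13.92 and 13.95 in adherent cells, 13.61, 13.51 and 13.59 in spheres and 13.73, 13.79 and 13.83 in xenografts. The groups did not overlap and kept the order adherent, xenograft, sphere. The sphere difference was -0.36 ± 0.08 (SE; limma adjusted p = 0.00648), or 0.778 times the adherent level. The xenograft difference was -0.15 (95% interval -0.34 to 0.03; adjusted p = 0.208) and passed with a mean-variance trend and robust estimation (adjusted p = 0.0300).

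CDK6 lies on the minus strand of chromosome 7 (92604921 to 92836573). Its brightest probe set, 224847_at, read 11.30, 11.44 and 11.30 in adherent cells, 11.52, 11.28 and 11.38 in spheres and 10.34, 10.64 and 10.40 in xenografts. All xenograft arrays were below all culture arrays, while spheres and adherent cells overlapped. The difference in xenografts was -0.89 ± 0.11 (SE; limma adjusted p = 1.68e-04), or 0.541 times the adherent level, and in spheres 0.05 (95% interval -0.18 to 0.29; adjusted p = 0.799). Probe sets 224851_at, 224848_at and 235287_at fell in xenografts by 1.22, 0.77 and 1.48. By the methods' test after adjustment, 224848_at (adjusted p = 0.077) and 235287_at (0.089) did not pass there. The difference of 224851_at was the most precise, with an SE of 0.09 and an adjusted p of 6.73e-06. Against spheres, 5 of the 7 CDK6 probe sets were lower in xenografts, with differences of -0.94 to -1.95. The remaining pair, 207143_at and 231198_at, passed in no comparison, with xenograft differences from adherent cells of 0.06 and 0.08. In spheres, 243000_at alone among the 7 passed and rose by 0.77 ± 0.16 (adjusted p = 0.00342), from 6.52, 6.52 and 6.34 to 6.97, 7.53 and 7.18, and by the methods' test after adjustment it just missed (0.0502). At 224851_at, whose sphere arrays read 10.95, 10.95 and 10.92 against 10.59, 10.84 and 10.64, the difference of 0.25 did not pass (adjusted p = 0.0736). It passed after quantile normalization (0.0187), among the brighter probe sets (0.0367), with array weights (0.0207) and with a mean-variance trend and robust estimation (0.0272). The mean over all 7 probe sets was higher in spheres by 0.30 (limma adjusted p = 0.0310), so the CDK6 call in spheres depends on which probe sets are read.

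The windows of 250 bases upstream of annotated starts of the CDK4 and CDK6 genes are shown because the kinases differ in which model lowered them (RefSeq, GRCh38.p14). Capitals mark the GC box GGGCGG and the E-box CACGTG on either strand; the E-box is the sequence bound by MYC and related factors. They lie at chr12:57752311-57752560 and chr7:92836574-92836823, both on the minus strand, and run 5′ to 3′ towards the gene.
CDK4: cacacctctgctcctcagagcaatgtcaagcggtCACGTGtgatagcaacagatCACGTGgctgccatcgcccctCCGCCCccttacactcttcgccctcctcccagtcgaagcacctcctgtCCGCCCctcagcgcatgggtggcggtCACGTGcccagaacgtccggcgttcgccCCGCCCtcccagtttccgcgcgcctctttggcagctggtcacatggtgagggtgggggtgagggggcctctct
CDK6: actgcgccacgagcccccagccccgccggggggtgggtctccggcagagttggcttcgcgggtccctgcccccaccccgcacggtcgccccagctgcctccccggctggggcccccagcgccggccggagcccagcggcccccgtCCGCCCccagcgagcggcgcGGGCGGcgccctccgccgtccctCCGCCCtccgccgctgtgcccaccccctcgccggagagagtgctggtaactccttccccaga
The CDK4 window held 3 E-boxes and 3 GC boxes and the CDK6 window shown 3 GC boxes and no E-box. A second annotated start of CDK6, with its window at chr7:92833960-92834209, had neither motif. Of 35116 windows of this length, 6.34% held an E-box and 42.6% a GC box. Letters in a window do not show that a factor is bound there.

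RB1, the substrate of both kinases and a brake on E2F factors, is on chromosome 13 (48303751 to 48481890). Probe set 203132_at read 9.41, 9.84 and 9.53 in adherent cells, 8.42, 8.50 and 8.72 in spheres and 9.69, 9.05 and 8.79 in xenografts. All sphere arrays were below all others, and the xenografts spread from within the adherent range to near the spheres. The fall in spheres was -1.05 ± 0.20 (SE; limma adjusted p = 0.00196), or 0.484 times the adherent level, the one change of at least 2-fold among the 25 probe sets in spheres. The xenograft difference was -0.41 (95% interval -0.85 to 0.02; adjusted p = 0.157), and without xenograft array 1 it passed at -0.67 (0.00832). Xenografts were higher than spheres by 0.63 (limma adjusted p = 0.0264), which did not hold without that array (0.0654), sphere array 1 (0.0754) or sphere array 2 (0.0727). The dim probe set 211540_s_at read 4.50 to 5.05 over all arrays and passed in no comparison, with a sphere difference of 0.14. RB1 protein is controlled by phosphorylation, which these arrays do not read.

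The Cip/Kip inhibitors held the largest difference. CDKN1A rose in spheres and fell in xenografts, CDKN1B rose in spheres, and CDKN1C read below the median of the array in all groups.

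CDKN1A, on chromosome 6 (36676463 to 36687332), encodes p21, an inhibitor that p53 and differentiation signals are known to induce. Its probe set 202284_s_at read 9.71, 9.72 and 9.76 in adherent cells, 10.48, 10.31 and 10.36 in spheres and 7.89, 7.75 and 7.46 in xenografts. The groups were far apart for their spread, with spheres highest and every xenograft array more than 1 unit below every culture array. The rise in spheres was 0.65 ± 0.11 (SE; limma adjusted p = 0.00103), or 1.57 times the adherent level. The fall in xenografts was -2.03 ± 0.11 (limma adjusted p = 8.88e-07), which left 0.245 of the adherent level. Xenografts lay 2.68 below spheres (limma adjusted p = 3.7e-08). Leaving out any array kept these 3 calls.

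CDKN1B, on chromosome 12 (12717368 to 12722369), encodes p27, which the SKP2 ubiquitin ligase marks for breakdown. Its probe set 209112_at read 9.50, 9.82 and 9.51 in adherent cells, 10.18, 10.41 and 10.38 in spheres and 10.36, 9.90 and 9.88 in xenografts. Spheres and xenografts both lay above adherent cells, in xenografts with 2 arrays just over the highest adherent array. The rise in spheres was 0.72 ± 0.14 (SE; limma adjusted p = 0.0027), or 1.64 times. The rise in xenografts, 0.44 ± 0.14 (adjusted p = 0.0460), was lost in 6 of the 9 fits that left out an array (adjusted p from 0.0374 to 0.147). It was also lost after median centring of the arrays (adjusted p = 0.0955). Xenografts and spheres differed by -0.28 (95% interval -0.59 to 0.04; adjusted p = 0.145). Without xenograft array 1, the highest of its group, the difference from adherent cells was 0.28 (limma adjusted p = 0.117) and that from spheres passed at -0.43 (0.0178).

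CDKN1C, on chromosome 11 (2883218 to 2885775), encodes p57. Its 5 probe sets had group means of 3.37 to 4.28. By their means over all 9 arrays, 3.45 to 4.10, they lay above 27.2% to 37.8% of probe sets. None passed in any comparison, and the largest difference was 0.28 in xenografts at 213182_x_at (limma adjusted p = 0.127), where the xenograft arrays read 4.30, 4.04 and 4.49 and the adherent arrays 4.07, 3.81 and 4.10. The groups overlapped at all 5 probe sets. Without xenograft array 2 that probe set passed against adherent cells at 0.40 (adjusted p = 0.0370) and against spheres at 0.35 (0.0392). All 5 are dim readings.

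The windows upstream of an annotated start of CDKN1A and of CDKN1B are shown because these inhibitors rose together in spheres and parted in xenografts. They lie on the plus strand at chr6:36678464-36678713 and chr12:12717118-12717367, and capitals mark the GC box GGGCGG and the CCAAT box on either strand. The CDKN1A window lies inside the annotated span of the gene (36676463 to 36687332), so it precedes an internal start.
CDKN1A: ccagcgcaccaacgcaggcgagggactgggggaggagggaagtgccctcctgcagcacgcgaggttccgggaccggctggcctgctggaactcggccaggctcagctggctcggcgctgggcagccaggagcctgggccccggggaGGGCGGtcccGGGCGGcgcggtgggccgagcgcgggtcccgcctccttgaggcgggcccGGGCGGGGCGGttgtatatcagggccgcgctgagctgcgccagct
CDKN1B: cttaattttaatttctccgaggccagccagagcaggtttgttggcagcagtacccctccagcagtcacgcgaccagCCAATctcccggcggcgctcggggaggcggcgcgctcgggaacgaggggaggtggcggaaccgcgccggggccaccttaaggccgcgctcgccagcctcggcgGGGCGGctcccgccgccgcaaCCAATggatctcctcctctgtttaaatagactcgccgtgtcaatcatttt
The CDKN1A window held 4 GC boxes, of which the last pair overlaps by a base, and no CCAAT box. The CDKN1B window held 1 GC box and 2 CCAAT boxes, a motif found in 32.0% of windows. The E2F site (TTTCGCGC, TTTGGCGC, TTTCCCGC or TTTGCCGC), in 2.79% of windows, the FOXO site TGTTTAC, in 2.98%, and TATAAA, in 10.7%, were in none of the 4 windows printed. Promoter sequences were matched for 7 of the 10 genes.

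**Figure D2:**
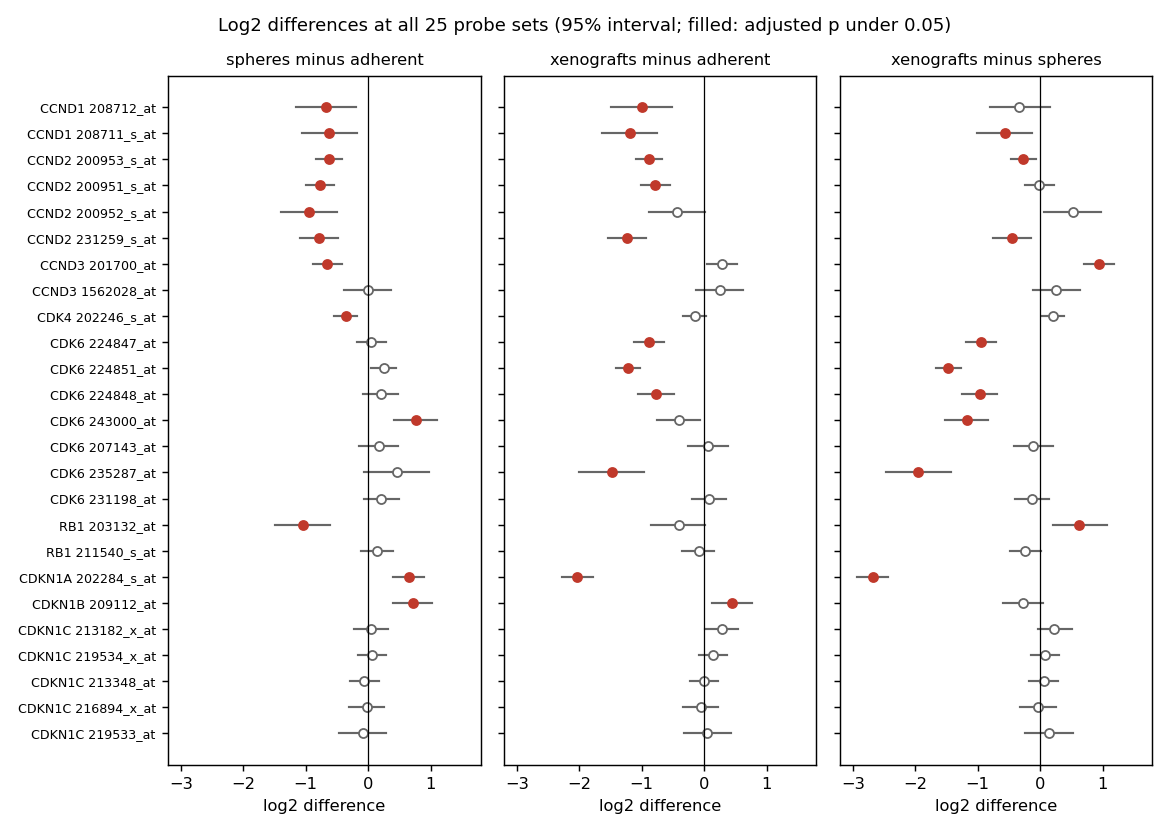
Log2 difference (horizontal axis) of each of the 25 probe sets in the 3 comparisons, with its 95% interval; filled points have a limma adjusted p under 0.05. CCND1 and CCND2 lie left of 0 in both comparisons with adherent cells, 4 of the 7 CDK6 probe sets passed on the left in both comparisons of xenografts, and CDKN1A lies right of 0 in spheres and left of it in xenografts.

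By the brightest probe set of each gene, 2 of the 9 genes were higher and 5 lower in spheres, beside 13.5% and 16.3% of all genes (29.8% in either direction), with a median difference of -0.36 against -0.04 for all genes. In xenografts 1 was higher and 4 lower, beside 12.6% and 14.3% of all genes (26.9%), with a median of -0.41 against 0.08. Between xenografts and spheres 2 were higher and 3 lower in xenografts, beside 25.7% and 18.3% (44.0%), with a median of -0.27 against 0.13.

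Around these genes, 53 other genes of the same pathway were read, 1 probe set each: INK4 inhibitors, pocket proteins and E2F factors, later cyclins and CDKs, the enzymes that switch CDKs on and off, the machinery that degrades D cyclins and inhibitors, and genes that E2F factors transcribe. In spheres 6 were higher and 30 lower than in adherent cells, 11.3% and 56.6% beside 13.5% and 16.3% of all genes, with a median difference of -0.53. In xenografts 1 was higher and 10 lower, 1.89% and 18.9% beside 12.6% and 14.3%, with a median of -0.09. The count of 11 changed genes in xenografts was unsteady, and fell to 5 without adherent array 2 and to 7 without adherent array 3. Xenografts were higher than spheres at 29 and lower at 7, 54.7% and 13.2% beside 25.7% and 18.3%, with a median of 0.39.

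Among the INK4 inhibitors, CDKN2B (p15) read 4.21, 4.21 and 4.06 in adherent cells, 4.89, 4.84 and 5.48 in spheres and 4.0, 3.96 and 3.74 in xenografts. It rose in spheres by 0.91 ± 0.15 (SE; limma adjusted p = 8.95e-04) from a low level, and its groups did not overlap. CDKN2D (p19) fell in spheres by 0.50 (limma adjusted p = 0.019) and did not pass in xenografts, at -0.39 (0.0666). CDKN2A, the source of p16 and ARF, passed in neither, with differences of 0.18 and 0.14.

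Of 12 pocket proteins and E2F factors, 7 fell and 1 rose in spheres, with a median of -0.59. These are 58.3% and 8.33%, beside 16.3% and 13.5% of all genes. In xenografts 3 of the 12 fell, where 14.3% of all genes did, and the median was -0.07. The activator E2F1 read 8.74, 8.70 and 8.89 in adherent cells, 7.85, 7.70 and 7.61 in spheres and 8.82, 8.92 and 8.96 in xenografts. Spheres were thus the low group, with a difference of -1.06 (limma adjusted p = 1.26e-05), and the xenograft difference was 0.12. E2F2 behaved alike, at -1.30 and 0.14. TFDP1, the dimer partner of E2F factors, fell by 1.47 in spheres, with -0.35 in xenografts (adjusted p = 0.0673). The repressor E2F7 fell in both, with differences of -1.68 in spheres and -0.71 in xenografts.

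Later cyclins and CDKs fell at 5 of 7 genes in spheres, 71.4% beside 16.3% of all genes, with a median of -0.92. In xenografts none fell, where 14.3% of all genes did, and the median was -0.08. CCNE2, whose cyclin drives CDK2 after the restriction point, read 10.05, 10.29 and 9.92 in adherent cells, 8.07, 8.12 and 8.31 in spheres and 10.10, 9.49 and 9.08 in xenografts. The sphere arrays were all below the rest, by -1.93 ± 0.21 from adherent cells (SE; limma adjusted p = 3.29e-05), and the xenografts overlapped adherent cells at -0.53 (0.0859). CCNE1, CDK2 and CCNB1 fell in spheres by 0.97, 0.92 and 1.05. In xenografts CCNE1, CDK2 and CCNB1 had differences of -0.04, -0.20 and -0.26.

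The enzymes that switch CDKs were split in spheres, with 3 of 8 higher and 3 lower and a median of -0.23. That is 37.5% each way, beside 13.5% higher and 16.3% lower of all genes. In xenografts 1 fell, 12.5% beside 14.3%. CDC25A, a phosphatase that activates CDK2, fell in both, with differences of -1.05 in spheres and -0.66 in xenografts. CDC25C and PKMYT1, the kinase that opposes it at CDK1, fell in spheres by 0.79 and 0.72. CDK7, the catalytic subunit of the CDK-activating kinase, rose in spheres by 0.72 (limma adjusted p = 1.76e-04).

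Of 14 genes for the turnover of D cyclins and inhibitors, 1 rose and 5 fell in spheres, with a median of -0.18. These are 7.14% and 35.7%, beside 13.5% and 16.3% of all genes. SKP2, the ligase subunit that recognises p27, read 13.13, 13.24 and 13.09 in adherent cells, 12.06, 11.93 and 11.96 in spheres and 12.85, 12.91 and 12.87 in xenografts. The 3 groups did not overlap, and spheres held 0.445 of the adherent level (-1.17 ± 0.09, SE; limma adjusted p = 2.41e-06), while the xenograft fall of 0.27 only just passed (0.0427). CUL4A and DTL, parts of the ligase that degrades p21 in S phase, fell in spheres by 1.07 and 0.88. In xenografts 1 rose and 2 fell, 7.14% and 14.3%, beside 12.6% and 14.3% of all genes. The larger fall was that of GSK3B, whose kinase marks cyclin D1 for export and breakdown. It read 9.85, 9.89 and 9.75 in adherent cells and 9.06, 9.04 and 8.94 in xenografts (-0.81 ± 0.09, SE; limma adjusted p = 1.29e-04), with no overlap.

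All 9 E2F and RB-repressed target genes measured fell in spheres, with a median of -1.38, where 16.3% of all genes fell. In xenografts 4 fell, 44.4% beside 14.3% of all genes, with a median of -0.23. CDC6, which loads the replicative helicase, read 8.53, 8.70 and 8.60 in adherent cells, 6.77, 6.73 and 6.91 in spheres and 8.78, 8.35 and 8.56 in xenografts. Its sphere arrays stood alone, at -1.80 from adherent cells, and its xenograft arrays overlapped adherent cells at -0.05. PCNA, the sliding clamp, and TK1, thymidine kinase, fell by 1.40 and 1.49 in spheres and had differences of 0.09 and -0.16 in xenografts. FOXM1, which drives mitotic genes, fell in both, with differences of -1.59 and -0.71. Spheres thus had fewer transcripts of E2F targets, beside less RB1 mRNA at the brighter of its probe sets. They had more of the inhibitors CDKN1A, CDKN1B and CDKN2B, the last from a low level, and less of CDKN2D. In xenografts, CDKN1A was at its lowest, beside E2F target levels that were mostly closer to those of adherent cells. Of the 9 targets, 4 were still lower than in adherent cells, and 1 read below its sphere level, at -0.10, without passing.

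**Figure D3:**
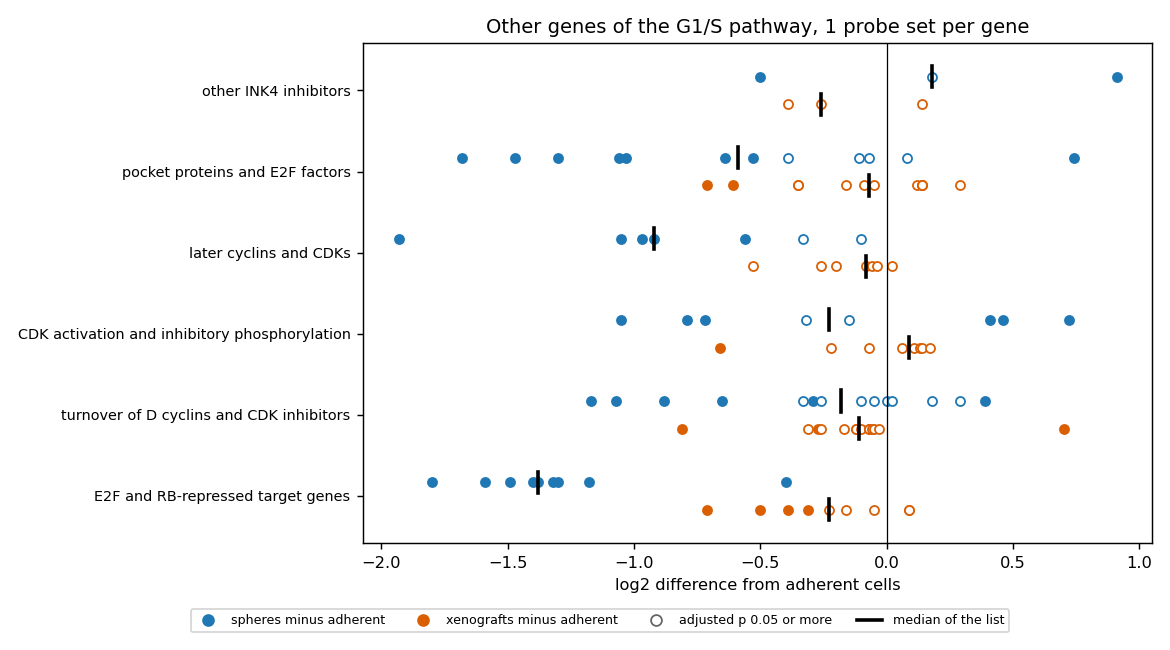
Log2 difference from adherent cells (horizontal axis) of each of 53 pathway genes, by list; blue points are spheres, orange points xenografts, open points did not pass, and black bars are list medians. The E2F and RB-repressed targets sit furthest left in spheres, at a median of -1.38.

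CDK4 lies in a dense stretch of chromosome 12, and the 5 protein-coding genes on either side of it were read to place its small change. In spheres 4 of these 10 neighbours were higher and 1 lower, beside 13.5% and 16.3% of all genes, with a median of 0.05 against -0.04. In xenografts 5 were higher and 1 lower, beside 12.6% and 14.3%, with a median of 0.30 against 0.08. EEF1AKMT3 had the largest rise in spheres, 1.23 ± 0.08 (SE; limma adjusted p = 1.27e-06), and TSFM the fall, 0.46 lower (adjusted p = 0.00413). TSPAN31, whose annotated gene overlaps CDK4 by 2493 bases at the end far from the CDK4 start, rose in spheres by 0.97 (limma adjusted p = 4.4e-05) and in xenografts by 0.49 (0.00781). In xenografts METTL1 rose by 0.63 and CYP27B1 fell by 0.69. Of the 10 neighbours, TSFM was the one that passed in the direction of CDK4 in spheres.

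**Figure D4:**
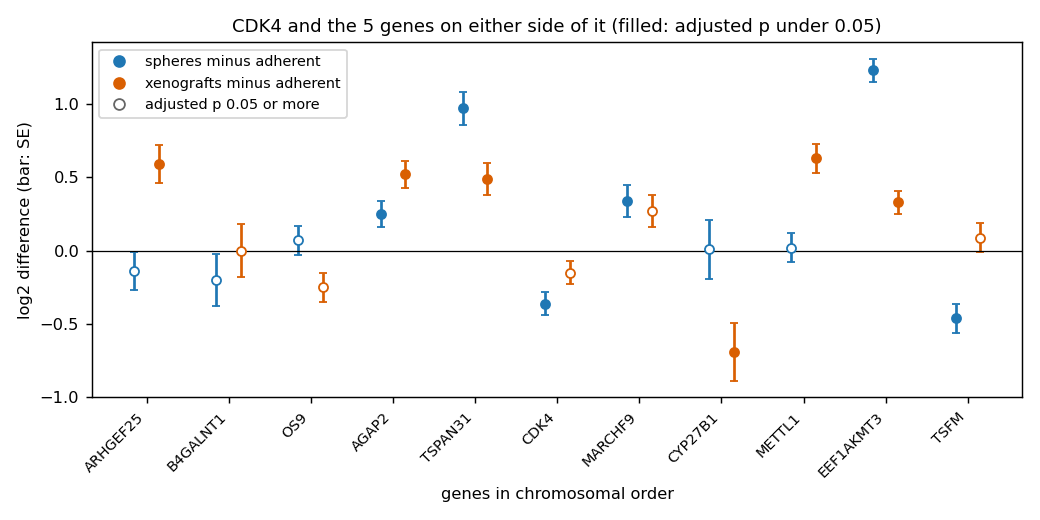
Log2 difference from adherent cells (vertical axis, bars are SE) of CDK4 and its neighbours in chromosomal order; blue points are spheres, orange points xenografts, and filled points passed. CDK4, at -0.36 and -0.15, lies beside TSPAN31 at 0.97 and 0.49.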

How the data were processed

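RNA from the 9 arrays was hybridized to the Affymetrix U133 Plus 2.0 array. The authors normalized all arrays together by RMA, and the deposited values are log2 levels per probe set; the version of the software is not given in the sources used here. After 62 control probe sets were set aside, a linear model with 1 mean per group (limma 3.58.1 under R 4.3.3, eBayes, 6 residual degrees of freedom) was fitted to the other 54613. Benjamini-Hochberg adjustment covered the whole table, the threshold was an adjusted p of 0.05, and intervals are at 95%. Gene names are those of the array's annotation (1 symbol at 41091 probe sets, several at 1801, none at 11721), and no symbol needed updating. A gene was read by its brightest single-symbol probe set, which gave 19775 genes.

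The genes and lists were chosen with earlier results of these data known. Named were every probe set of the listed genes, all the other INK4 inhibitors, up to 4 changed genes of each further pathway list with the largest change, and the neighbours of CDK4 with the largest rise and fall. TSPAN31 was added for its overlap, and MYOD1 from the markers. CD68, of the leukocyte list, was not measured by a single-symbol probe set. Motifs were searched on both strands in the 250 bases upstream of RefSeq starts. Alternatives were other scalings, a filter on dim probe sets, other variance models and tests, a replicate block, probe sets without shared-transcript suffixes, and each array left out. The number of arrays limits the precision.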

Additional observations from a re-analysis of the deposited data

Results flagged for a closer look

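The response of spheres and that of xenografts, each against the same adherent cells, differed by a direct limma test of xenografts against spheres at 11 of the 25 probe sets, where 39.1% of all probe sets passed the same test. Of the 53 pathway genes 36 passed, beside 44.0% of all genes. The pathway genes below are 21 of the 23 named, most of which were named for a large change, so this count is a description. Values are log2 xenografts minus spheres.

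CDKN1A was the most distant, at -2.68 (limma adjusted p = 3.7e-08), having risen in spheres and fallen in xenografts. CDK6 was lower in xenografts at 224847_at (-0.94), 224851_at (-1.47), 224848_at (-0.97), 243000_at (-1.17) and 235287_at (-1.95), with adjusted p from 5.69e-07 to 1.38e-04. CCND3 was higher in xenografts at 201700_at (0.94), as was RB1 at 203132_at (0.63), though the RB1 call was lost in 3 of the 9 fits that left out an array. CCND1 at 208711_s_at (-0.57) and CCND2 at 200953_s_at (-0.27) and 231259_s_at (-0.45) were lower in xenografts, having fallen in both. Leaving out an array ended these calls in 7, 6 and 3 of 9 fits.

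Of the named pathway genes, 18 were higher in xenografts. These were the factors E2F7 (0.97), TFDP1 (1.12), E2F2 (1.44) and E2F1 (1.18), and the later cyclins and kinase CCNE2 (1.39), CCNB1 (0.79), CCNE1 (0.94) and CDK2 (0.71). The CDK switches CDC25A (0.39), CDC25C (0.57) and PKMYT1 (0.78) and the ligase genes SKP2 (0.90), CUL4A (0.97) and DTL (0.71) were higher too. The E2F targets CDC6 (1.76), FOXM1 (0.88), TK1 (1.32) and PCNA (1.49) completed them. CDKN2B (-1.17), CDK7 (-0.61) and GSK3B (-0.56) were lower in xenografts.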

How the results depend on the processing

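No log2 difference of a probe set changed sign under an alternative while it was past the threshold in the fit reported or under the alternative. Over all alternatives, 1377 differences kept their side of the threshold, 61 lost their call and 32 gained one. Counts below are in the order spheres against adherent, xenografts against adherent, xenografts against spheres. The probe sets of the D cyclins, kinases and inhibitors changed numbered 12, 11 and 11, and the pathway genes 36, 11 and 36. Leaving out an array gave 10 to 12, 10 to 13 and 8 to 13 for the former and 31 to 39, 5 to 15 and 32 to 36 for the latter. A change of at least 2-fold left 1, 6 and 4, and 18, 0 and 11. Of 14 probe sets without the suffixes _s_at and _x_at, which can match several transcripts, 5, 6 and 7 passed, and of 30 such pathway genes 20 and 21 passed in the comparisons with spheres. An unpaired t-test after Benjamini-Hochberg adjustment gave 6 probe sets and 7 pathway genes in xenografts against adherent cells, and without adjustment 17 pathway genes. The paper lists this test among its general statistics and names no test for the arrays. The cause of these moves was not tested, other than that a stricter fold or fewer probe sets leaves fewer.

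Pairing by replicate number was looked for in deviations from group means, correlated between arrays of different groups. The best match of 2 of 9 arrays bore their own number. Correlations between same-numbered arrays ran from -0.18 to 0.18, so no sign of pairing was seen. With the replicate number as a block, 12, 11 and 12 probe sets and 36, 10 and 35 pathway genes passed. In xenografts against adherent cells the block ended the call of CDKN1B (adjusted p = 0.0702) and added CDK6 at 243000_at (0.0429), and against spheres it added CCND2 at 200952_s_at (0.0261). Dim probe sets, such as those of CDKN1C, are limited by the background of the array.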

Other observations

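The genes whose log2 profile over the 9 arrays, centred on its own mean, lay nearest to that of CDKN1A were HHIPL2 (Euclidean distance 0.43), EPDR1 (0.62) and NRIP3 (0.71). Their differences from adherent cells were 0.85, 1.01 and 0.42 in spheres and -1.84, -1.65 and -2.15 in xenografts. Those nearest to RB1 were PRKD3 (0.30), MASTL (0.33) and BMP2K (0.37), with differences of -0.93, -0.99 and -0.96 in spheres and -0.31, -0.34 and -0.31 in xenografts. CDKN1A and RB1 were taken because, by the brightest probe set of each gene, their group means span the widest ranges, 2.68 and 1.05. The arrays are shared by all these genes, and the likeness was not tested.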
